A study of Homo sapiens with 16 samples.

Results

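Interleukins are secreted messenger proteins through which blood and tissue cells direct each other's growth, survival and activation, and each acts through a receptor built from 1 or more membrane chains. The genes described here are those whose symbol in the array annotation starts with IL and a number, without IL7R and IL2RG and without antisense, divergent or pseudogene transcripts. They numbered 80 of the 19735 genes measured, namely 37 receptor chains, 38 ligands, 4 soluble inhibitors and 1 enzyme. Another 3 genes with such symbols (IL9, IL31 and IL17REL) were not analysed here.

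The study measured total RNA from 16 established human lines of T-ALL, a leukemia of T-lineage precursors (T-cell acute lymphoblastic leukemia), and gave each line 1 Affymetrix U133 Plus 2.0 array. The lines were ALL-SIL, CCRF-CEM, DU528, HSB-2, JURKAT, KOPT-K1, LOUCY, MOLT-16, MOLT-4, P12-ICHIKAWA, PEER, PF-382, SKW-3, SUP-T11, SUP-T13 and TALL-1. All were untreated, grown in RPMI-1640 with 10% fetal bovine serum and harvested after 24 hours, and they form 1 group without a control. Each line stands for 1 leukemia kept in culture, without the stroma and other immune cells around it, and was measured once. No replicate error can therefore be given, an SD describes the spread between lines, and the number of arrays limits the precision.

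Most receptors in this group work in one of 3 ways. Type I and type II cytokine receptors, such as those for IL-2, IL-4, IL-9, IL-10 and IL-21, carry JAK kinases that activate STAT factors. Receptors of the IL-1 family, among them those for IL-18 and IL-33, signal through MYD88 and IRAK kinases, and IL-17 receptors through the adaptor TRAF3IP2. Developing and leukemic T cells are known to depend on the first kind, above all on the IL-7 receptor and on the gamma chain that it shares with the receptors for IL-2, IL-4, IL-9, IL-15 and IL-21.

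Array medians lay between 37.6 and 44.96. Over 9 spiked-in hybridisation controls the SD across arrays was 0.17 at the median and 0.19 at most, in log2(intensity + 16), the scale of all SDs here. Of 8 T-cell markers 5 (CD3D, CD3G, CD247, CD7 and LCK) exceeded 4 times the table median in all lines. CD3E did so in 15 lines and was 31.15 in MOLT-16, CD5 in 12 and CD2 in 9, and DU528 was lowest for both, with CD5 at 9.5 and CD2 at 11.1. The 5 measured myeloid markers summed to 487 in DU528, mostly LYZ (384.5), and to between 97.9 and 174 in the other lines, with CD14 at most 21.7 and MPO at most 29.3. The ACTB control signal at the 3' end over that at the 5' end ran from 1.44 in DU528 to 2.03 in MOLT-4.

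Intensities were set against the median of the whole table, 42.4, and a gene is called clearly present in a line above 4 times that value, 169. Of the 80 members 9 lay above the table median in all 16 lines, 41 in some and 30 in none. Over all genes measured, 42.9% were above it in all lines and 24.4% in none. Clearly present in at least 1 line were 31 members, or 38.8%, against 55.0% of all genes. These 31 were 20 of the 37 receptor chains, 9 of the 38 ligands, the IL-18 antagonist IL18BP and the enzyme gene IL4I1. An SD above 1 was found for 23 members, or 28.8%, against 12.5% of all genes. The median SD was 0.41 over the members and 0.35 over all genes. The comparison describes the list, since no test was made over it.

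**Figure D1:**
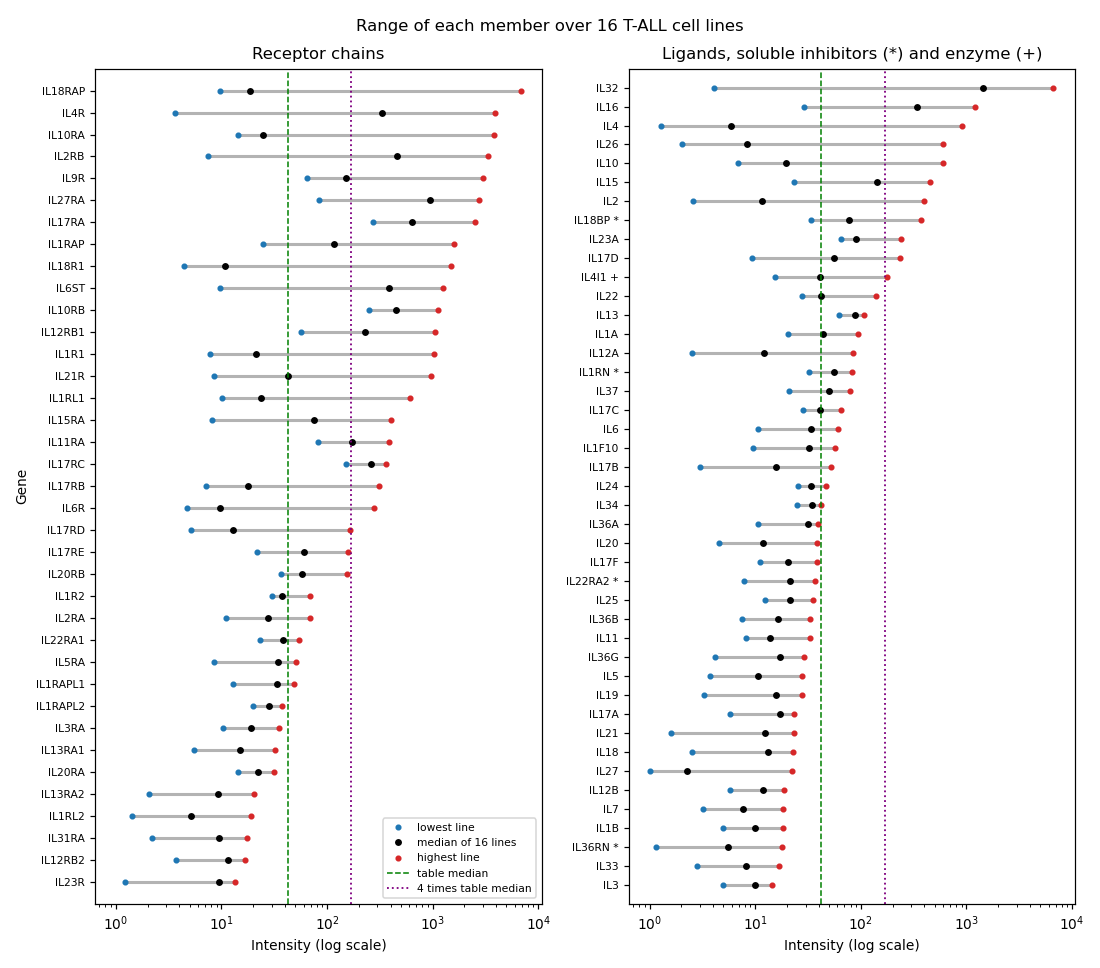
Intensity (log axis) of each of the 80 members: the lowest line, the median of 16 lines and the highest line, for receptor chains (left) and for ligands, soluble inhibitors and the enzyme (right). The green dashed line is the table median, 42.4, and the purple dotted line 4 times that; 20 receptor chains and 9 ligands reach the latter in at least 1 line.

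The line between present and background is not sharp. The members whose highest value lay just above the table median were IL24 (46.4), IL1RAPL1 (48.6), IL5RA (50.9), IL17B (51.7) and IL22RA1 (53.8). Those just below it were IL34 (41.9), IL36A (39.5), IL20 (38.8), IL17F (38.7) and IL1RAPL2 (37.5). Values in this zone do not tell a low level from none.

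Receptor genes of the IL-18 and IL-1 family neighbour each other on chromosome 2, and several of them were high in the same few lines. IL18R1 and IL18RAP encode the binding chain and the signalling partner chain of the IL-18 receptor, and the 300 bases around the start of each RefSeq gene (250 before and 50 after it, GRCh38.p14, + strand) are shown to set the paired genes side by side. IL18R1 lies at chr2:102355546-102355845 and IL18RAP at chr2:102418371-102418670. Capitals mark matches on either strand to 4 short motifs. The STAT motif was searched as TTCNNNGAA and that of RUNX factors, which build the T lineage, as TGTGGT. For GATA factors, which include the T-cell factor GATA3, the letters searched were AGATAA, and for the large family of ETS factors they were GGAAGT.

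IL18R1: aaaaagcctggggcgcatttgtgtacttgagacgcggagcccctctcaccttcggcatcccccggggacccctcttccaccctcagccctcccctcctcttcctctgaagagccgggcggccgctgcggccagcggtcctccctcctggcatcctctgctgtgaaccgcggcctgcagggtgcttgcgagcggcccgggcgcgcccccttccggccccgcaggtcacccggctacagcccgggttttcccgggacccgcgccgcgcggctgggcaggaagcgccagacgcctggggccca

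IL18RAP: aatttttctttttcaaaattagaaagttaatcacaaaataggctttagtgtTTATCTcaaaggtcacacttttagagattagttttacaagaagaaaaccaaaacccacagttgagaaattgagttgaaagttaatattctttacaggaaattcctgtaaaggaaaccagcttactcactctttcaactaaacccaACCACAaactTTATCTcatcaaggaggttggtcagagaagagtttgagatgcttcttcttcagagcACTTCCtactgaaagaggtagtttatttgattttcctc

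The windows differed in composition, with 72.3% G and C for IL18R1 and 33.3% for IL18RAP, against a median of 62.7% over 15842 protein-coding promoters of this length. The IL18RAP window held 1 RUNX, 2 GATA and 1 ETS match and no STAT match, none of which overlapped another. That of IL18R1 held none of the 4 motifs. Of all promoters 10.8% held the RUNX letters, 7.57% the GATA, 24.8% the ETS and 6.97% the STAT letters. The motifs were chosen after the values were seen, and a match is a description of the letters and not a site.

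IL18RAP ran from 9.71 in SKW-3 over a median of 18.5 to 6912 in LOUCY. It was clearly present in LOUCY, SUP-T13 (2199.6) and DU528 (352), read 137 in MOLT-16 and lay at or below 25.0 in the other 12 lines. IL18R1 ran from 4.41 in JURKAT over a median of 10.9 to 1503 in SUP-T13. It was clearly present in LOUCY (933), DU528 (463), KOPT-K1 (332) and MOLT-16 (250.4) as well, and at most 47.5 elsewhere. Both chains were therefore clearly present in 3 lines (DU528, LOUCY and SUP-T13), IL18R1 without its partner in 2 (KOPT-K1 and MOLT-16), and neither in 11. DU528, LOUCY and SUP-T13 also had the 3 lowest ACTB ratios (1.44, 1.45 and 1.45), a sign of RNA quality, followed by PEER (1.503), where neither chain was clearly present. The part of this ratio in the presence of the chains was not tested. The levels of IL18R1 and IL18RAP followed each other with r = 0.86 over 16 lines on the same arrays, the highest among the 253 pairs of the 23 members with an SD above 1, whose median r was 0.14. IL18, the ligand, was at background in all lines, at most 22.9.

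The next genes in the row were high in fewer lines. IL1RL1, the receptor for IL-33, was 608 in DU528 and 366 in LOUCY and at most 39.96 in the other 14 lines, among them SUP-T13 (22.8), at the probe set used. Another IL1RL1 probe set was clearly present in DU528 only (198), with LOUCY next at 113. The remaining IL1RL1 sets were clearly present in no line, at most 110 (DU528) and 25.6 (LOUCY). IL1R1, the signalling receptor for IL-1, was 1027 in DU528 and at most 42.7 in the other 15, and a second IL1R1 probe set stayed at or below 23.4 in all lines. IL1R2, a decoy receptor, lay between 30.2 and 68.4, and IL1RL2, an IL-36 receptor chain, was at background in all lines. IL1RAP, the partner chain shared by the IL-1, IL-33 and IL-36 receptors, was more widely present at the probe set used. Its lowest value there was 24.6 (TALL-1), its median 116 and its highest 1604 (LOUCY), followed by DU528 (1008) and ALL-SIL (569). A second IL1RAP probe set followed it (r = 0.86) but had a median of 41.7, below the table median, and fell to 5.67. That set was clearly present in LOUCY (362) and DU528 (193) only. IL1R1 and IL1RAP were thus both clearly present in DU528 only. DU528 was also the line with the highest myeloid marker sum. The 3 measured erythroid markers summed to 318 in LOUCY and 262 in DU528, mostly HBB (279.7 and 202.8), and to between 67.3 and 103 elsewhere, with ALAS2 at most 29.4. The part of these markers in the results was not tested.

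**Figure D2:**
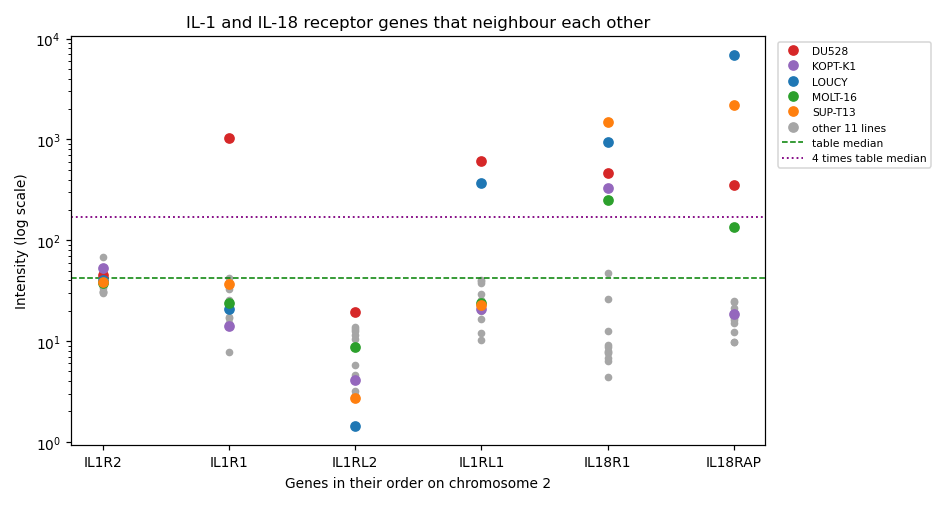
Intensity (log axis) of 6 IL-1 and IL-18 receptor genes at the probe sets used, in their order on chromosome 2, in the 16 lines. Coloured points are the 5 lines with IL18R1 above 4 times the table median, and grey points the other 11; DU528 alone is high for IL1R1, DU528 and LOUCY for IL1RL1, and LOUCY, SUP-T13 and DU528 for IL18RAP.

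None of the ligands of this family was clearly present. IL1A ran from 20.7 in MOLT-16 to 94.9 in SUP-T11 and IL1B, IL33 and IL36G were at background, at most 18.4, 16.9 and 28.8. IL1RN, the natural IL-1 antagonist, lay between 32.6 and 83.4, and IL37, an inhibitory family member, between 20.9 and 79.3. IL18BP, which neutralises IL-18, reached 375 in SUP-T13, 284 in ALL-SIL, 269 in HSB-2, 247 in MOLT-4 and 241 in JURKAT. It was named after its values were seen. Of the 11 measured genes of the IL-1 signalling list (MYD88, IRAK kinases, TRAF6, TAB and others) 5 were clearly present in all lines and 1 in none. IRAK3, an inhibitory member of the IRAK family, was 547 in PEER, 469 in DU528 and 428 in SKW-3 and at most 40.3 elsewhere.

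Receptors of the gamma chain family were led by IL2RB, the beta chain of the IL-2 and IL-15 receptors. Its intensity was 3318 in KOPT-K1, 2884 in SUP-T13, 2803 in HSB-2, 2541 in LOUCY, 2003 in ALL-SIL, 1741 in DU528 and 1282 in TALL-1. In 7 more lines it lay between 187 and 485, and it was 13.8 in MOLT-4 and 7.46 in SUP-T11 (SD 2.23). IL2RA, the alpha chain that gives the IL-2 receptor its high affinity and is induced on activated T cells, was never clearly present: its highest value was 68.3 in DU528. IL15RA, the alpha chain of the IL-15 receptor, ran from 8.17 in MOLT-16 over a median of 74.9 to 403 in KOPT-K1, followed by MOLT-4 (239) and LOUCY (229.6). MOLT-4 thus had the second highest IL15RA and almost the lowest IL2RB.

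IL9R, the receptor for the mast cell and T-cell growth factor IL-9, stood out in 4 lines. It was 2991 in SUP-T13, 2477 in DU528, 2212 in HSB-2 and 796 in PEER, against 64.01 to 225 in the other 12. Its 2 further probe sets followed the same pattern over the lines (r = 0.96 each). They had their highest values in HSB-2 and DU528, so the order of the top lines is not settled. IL9R has several pseudogene copies in the reference annotation, with which probes can share sequence. IL21R, the IL-21 receptor, was 967 in SUP-T11 and at most 120.3 elsewhere, and 2 more probe sets gave the same line (585 and 536, next highest 72.1 and 94.3).

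IL4R, the chain that binds IL-4, ran from 3.63 in MOLT-16 and 7.13 in P12-ICHIKAWA over a median of 330.3 to 3869.6 in SUP-T11. HSB-2 (2455) and DU528 (1129) followed. Among the wide members it went with IL27RA (r = 0.78) and IL16 (r = 0.75), and with its chromosome neighbour IL21R (r = 0.66, n = 16 lines), for which SUP-T11 was highest in both. IL13RA1, the partner with which IL4R forms the second type of IL-4 receptor, was at background in all lines (at most 32.4), as was IL13RA2 (at most 20.3). IL3RA, the alpha chain for IL-3, was at most 35.2, although its partner chain CSF2RB was 1329.8 in DU528 and at most 105 elsewhere. IL5RA stayed at or below 50.9. The shared gamma chain IL2RG exceeded 169 in 15 lines and was lowest in HSB-2 (167).

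**Figure D3:**
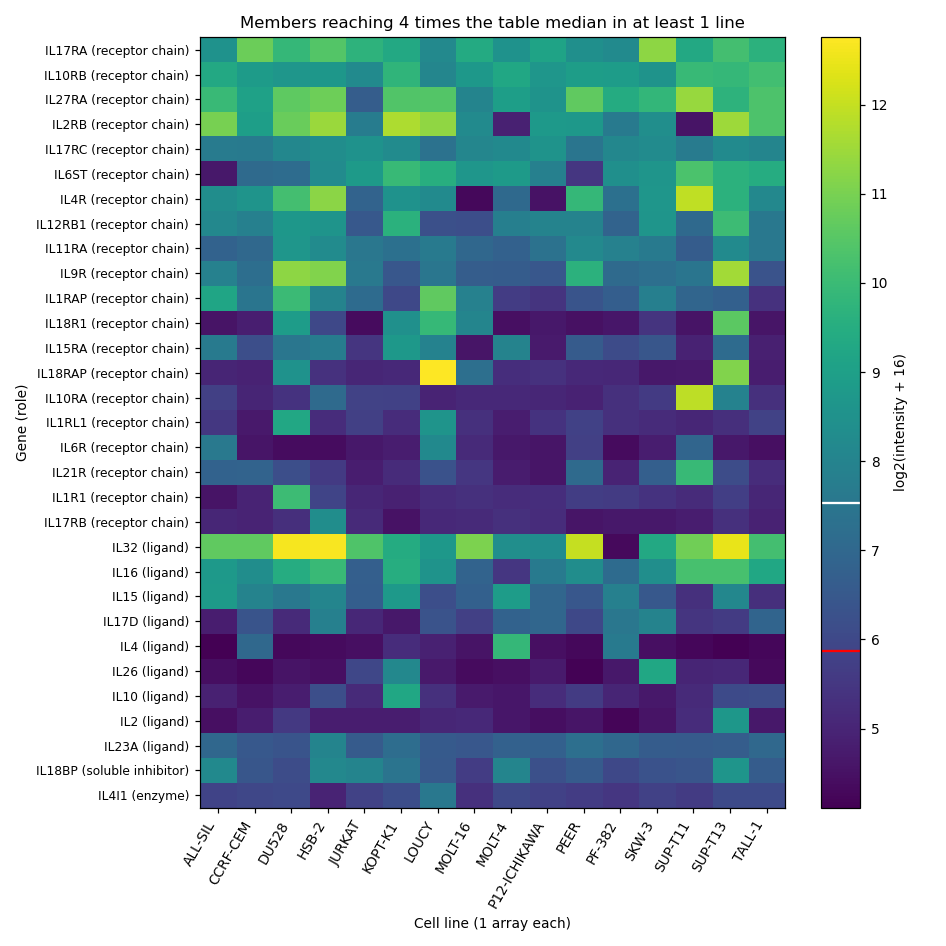
Heat map of log2(intensity + 16) for the 31 members that reached 4 times the table median in at least 1 of the 16 lines, ordered by role and by the number of such lines. On the colour bar the red mark is the table median and the white mark 4 times that; IL17RA and IL10RB are above the white mark in all lines, and IL10RA, IL1R1, IL17RB, IL10 and IL2 have 1 line far above the others.

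Receptors of the IL-10, IL-12 and IL-6 families often had 1 chain clearly present and its partner not. IL10RB, a chain shared by several IL-10 family receptors, was clearly present in all lines, from 252 in LOUCY over a median of 449 to 1125 in TALL-1. IL10RA, which binds IL-10 itself, was 3811 in SUP-T11, 232 in SUP-T13 and 121 in HSB-2 and at most 39.8 in the other 13. Both chains were clearly present only in SUP-T11 and SUP-T13. IL12RB1, shared by the IL-12 and IL-23 receptors, lay above the table median in all lines at the probe set used. It ran from 56.1 in MOLT-16 over a median of 229 to 1043 in SUP-T13 and 785 in KOPT-K1. A second IL12RB1 probe set followed it (r = 0.90) but fell to 3.83 and was clearly present in 2 lines only. Another did not follow it (r = 0.22) and lay between 18.7 and 101. The partner chains IL12RB2 and IL23R were at background in all 16 lines, at most 16.7 and 13.3.

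IL27RA, the specific chain of the IL-27 receptor, was clearly present in 15 lines, with a median of 947 and a highest value of 2727 in SUP-T11, and it was 84.6 in JURKAT. A second probe set followed it closely (r = 0.99), and another, never clearly present and highest in DU528 (56.2), did not (r = -0.13). IL6ST (gp130) is the signalling chain shared by the IL-6, IL-11 and IL-27 receptors. At the probe set used it was clearly present in 12 lines, highest in SUP-T11 (1246) and KOPT-K1 (975). Its other probe sets had r between -0.20 and 0.91 to that set. They were clearly present in 0 lines, apart from 1 that read 201 in KOPT-K1 and was clearly present there only. At the set used IL6ST was 28.3 in PEER and 9.7 in ALL-SIL, where IL27RA was 1604 and 993. IL27RA and IL6ST were both clearly present in 11 lines at the probe sets used. IL6R read 280.5 in LOUCY, 177 in ALL-SIL, 107 in SUP-T11 and no more than 38.1 elsewhere. At the probe sets used IL6R and IL6ST were therefore both clearly present in LOUCY only. A second IL6R probe set followed the first (r = 0.96) but was at most 120 (LOUCY). Another, at most 26.8, did not follow it (r = -0.09). IL11RA lay above the table median in all lines at the probe set used, from 82.8 in SUP-T11 to 387 in DU528. A second IL11RA probe set (r = 0.67) was never clearly present. It was highest in SKW-3 (96.3) and fell to 35.6, below the table median.

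Among IL-17 receptors, IL17RA, the chain common to the family, was clearly present in all lines. It ran from 271 in LOUCY over a median of 639.8 to 2513 in SKW-3, with CCRF-CEM next (1804), and 3 further probe sets also had SKW-3 and CCRF-CEM as their 2 highest lines. IL17RC, its partner in the receptor for IL-17A and IL-17F, lay between 151 and 361, but its 3 other probe sets did not follow it (r between -0.17 and 0.04). IL17RB, the chain for IL-25, was 309 in HSB-2 and at most 23.9 in the other 15, with HSB-2 highest at both other probe sets as well. The ligands IL17A, IL17F and IL25 were at background in all lines, at most 23.3, 38.7 and 35.0. The adaptor TRAF3IP2 was clearly present in all lines.

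IL32, a proinflammatory product of T and NK cells, and IL16, a T-cell attractant, were the ligands clearly present in most lines, 15 and 12 of them, whereas at the table median IL13 and IL23A were above it in all 16. IL32 was 6550.1 in HSB-2, 6416 in DU528, 5677 in SUP-T13 and 4050.0 in PEER. Its median was 1446, it was at least 306 in 15 lines, and it was 4.12 in PF-382. The 4 highest lines were the same as for IL9R, and the levels of the pair had r = 0.66 (n = 16). IL16 ran from 28.8 in MOLT-4 over a median of 339 to 1199.6 in SUP-T11 and 1208 in SUP-T13 at the probe set used. Its other probe sets were never clearly present, at most 111 (r = 0.26 to the set used) and 168 (r = 0.86). IL15, a survival factor for lymphocytes, was 456 in MOLT-4, 432 in ALL-SIL and 412 in KOPT-K1 at the probe set used. Its median there was 142, with lowest values of 23.4 in SUP-T11 and 23.1 in TALL-1. A second IL15 probe set followed it (r = 0.94) but had a median of 56.3. That set was clearly present in 2 lines only, against 8 at the set used. At the set used IL15 went with its receptor chain IL15RA (r = 0.67). IL17D ran from 9.28 in KOPT-K1 to 234.5 in SKW-3 and 219 in HSB-2.

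IL4, the type 2 helper cytokine, was 916 in MOLT-4, 184 in PF-382 and 116 in CCRF-CEM and at most 21.3 in the other 13, and a second probe set had the same first line (906) and then PF-382 (140.1). Its neighbours IL13 and IL5 did not share this pattern, with IL13 between 62.4 and 106 and IL5 at most 27.7. IL10 was 599 in KOPT-K1 and at most 56.7 elsewhere. IL26, an IL-10 relative, was 599.8 in SKW-3, 271 in KOPT-K1 and 45.3 in JURKAT and at most 18.0 elsewhere. Its chromosome neighbour IL22 was 138 in KOPT-K1, and a second IL22 probe set gave 306 there and at most 19.8 in the other 15 lines. IL22 was named after its values were seen. IL2, the T-cell growth factor, was 400.4 in SUP-T13 and at most 30.4 in the other 15, although a second probe set of low signal stayed at or below 5.27 in all lines.

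IL23A, part of IL-23, ran from 65.3 to 241 at the probe set used, which was highest in HSB-2. Of the 4 probe sets that name only IL23A, this is the one whose sequence accession is a RefSeq transcript of the gene. Another read 1909 in SUP-T11, 1298 in PEER and at most 40.5 in the other 14 lines. A probe set that the annotation lists with both IL23A and TRBV19, a variable segment of the T-cell receptor beta chain, read 9446 in SUP-T13, 1283 in PEER and 563 in ALL-SIL. These probe sets do not measure the same pattern, and why they differ was not tested.

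A highest line at least 3 log2 units above the next was found for 5 members: IL1R1 in DU528, IL10RA in SUP-T11, IL2 in SUP-T13, IL10 in KOPT-K1 and IL17RB in HSB-2. Of all genes 0.522% met this rule. Clearly present members per line ranged from 8 in JURKAT to 19 in HSB-2, with 18 in SUP-T13, 17 in DU528 and 16 in LOUCY, and with 9 in MOLT-16 and P12-ICHIKAWA. Of all genes, between 41.7% (P12-ICHIKAWA) and 44.3% (LOUCY) were clearly present in a line, with 43.4% in JURKAT and 44.1% in HSB-2. The upper quartile of the arrays ran from 248 in MOLT-16, 262 in P12-ICHIKAWA and 270.2 in JURKAT to 308 in LOUCY, and its part in the counts was not tested. At the probe sets used SUP-T13 held the highest value of 6 of the 31 members (IL2, IL9R, IL12RB1, IL16, IL18R1 and IL18BP). SUP-T11 held that of 5 (IL4R, IL6ST, IL10RA, IL21R and IL27RA). How often each line was highest over all genes was not counted. The other IL9R probe sets and another IL16 set were highest in HSB-2, and some other IL6ST sets in KOPT-K1. SUP-T11 had the lowest IL2RB (7.46) and, at the probe set used, the lowest IL11RA (82.8). Its IL2RA was lowest as well (11.2, with LOUCY at 13.5), but such values do not tell a low level from none. The 4 NK cell markers summed to 726 in SUP-T11, mostly KLRF1 (626.7), to 408 in TALL-1 and to between 102 and 192 elsewhere, with NCR1 at most 39.4 and NCAM1 at most 47.5, and their part was not tested.

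**Figure D4:**
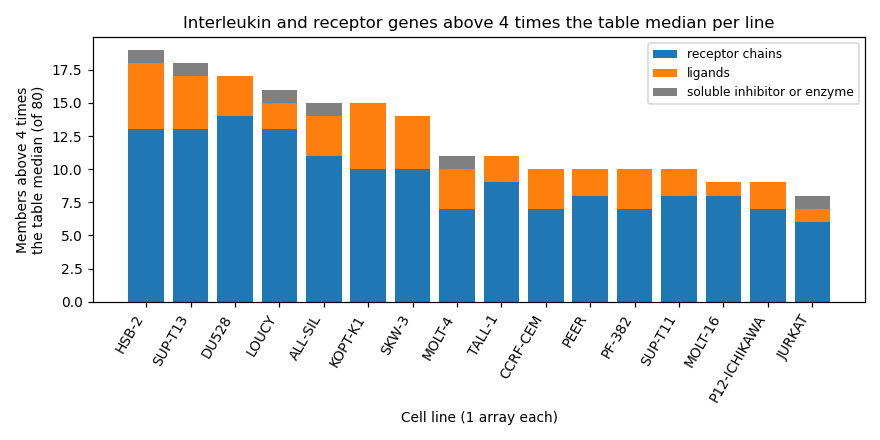
Number of members above 4 times the table median in each of the 16 lines, stacked as receptor chains, ligands, and soluble inhibitor or enzyme. The counts run from 19 in HSB-2 to 8 in JURKAT, and receptor chains outnumber ligands in every line.

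The genes most like the 4 widest members over the 16 lines were searched among 13292 others, and r is given as a description. For IL18RAP these were LGALS12 (r = 0.93), RHEX (0.88) and CABIN1 (0.88). IL2RB was most like NKG7, a cytotoxic granule gene (0.92), COPB1 (0.89) and TGFBR1, a receptor for TGF-beta (0.85). NADSYN1 (0.88), CAPN3 (0.87) and IL18RAP (0.86) were nearest to IL18R1. For IL32 the nearest were CD53, a leukocyte tetraspanin (0.86), PNPLA6 (0.85) and TMC6 (0.81).

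The first fit asked which members went with CISH, a feedback inhibitor that STAT5 induces below cytokine receptors. The 4 highest CISH values were those of HSB-2 (5856), KOPT-K1 (5513), ALL-SIL (5436) and SUP-T13 (3735), the median was 293 and the lowest value was that of SUP-T11 (15.9). By limma with Benjamini-Hochberg adjustment, 0 of the 42 members tested were called higher or lower with CISH, where 0.113% of 13292 genes were called higher and 0.00% lower. At an unadjusted p below 0.05 there were 7 of the 42, all with a positive slope, where 8.69% of all genes tested had such a p. In order of p, IL2RB came first, with a slope of 0.67 ± 0.18 (SE) log2 units per log2 unit of CISH (limma adjusted p = 0.203). IL12RB1 followed with 0.33 ± 0.09 (limma adjusted p = 0.227), then IL15 with 0.34 ± 0.10 (0.235) and IL15RA with 0.38 ± 0.11 (0.273). IL9R had a slope of 0.46 ± 0.17 (limma adjusted p = 0.407), and IL18BP and IL2RA had adjusted p-values of 0.439 and 0.482. The median slope was 0.04 over the members and 0.00 over all genes tested. LOUCY and TALL-1 had high IL2RB (2541 and 1282) with low CISH (169 and 84.7), and the relation did not pass the threshold in any of the 27 alternatives run.

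The second fit used LYL1, a factor of blood progenitors that marks immature T-ALL, highest in LOUCY (3655) and DU528 (2178) with a median of 197. Again limma called 0 of 42 members, where 0.655% of 13292 genes were called higher and 0.188% lower with LYL1, and 7 of the 42 members had an unadjusted p below 0.05, as did 15.6% of all genes tested. IL18RAP had a slope of 1.03 ± 0.24 (SE; limma adjusted p = 0.0566), IL1RAP of 0.59 ± 0.17 (limma adjusted p = 0.125) and IL18R1 of 0.82 ± 0.24 (limma adjusted p = 0.131). The others of the 7 were IL9R, with a slope of 0.52 (0.13 with the ACTB ratio as a covariate), and members with negative slopes. The negative slopes were those of IL17RE (-0.20), IL17RC (-0.11) and IL1RAPL1 (-0.09). Without PEER, where LYL1 was 1652 and IL18R1 6.8, limma called IL18RAP (adjusted p = 0.0207) and IL18R1 (adjusted p = 0.0477), and no other alternative called a member. With the ACTB ratio as a covariate the slopes were 0.96 for IL18RAP (limma adjusted p = 0.154) and 0.75 for IL18R1 (limma adjusted p = 0.257). Over the 26 alternatives for IL18RAP the adjusted p ran from 0.0207 to 0.259, and over the 27 for IL18R1 from 0.0477 to 0.652. Without DU528 and LOUCY, the lines farthest in LYL1, limma called 0 of 39 members, but IL18RAP no longer passed the filter on low values and was not tested there. Without its trend and robust options limma called 0 members for either gene, with 7 at an unadjusted p below 0.05 for LYL1 and 8 for CISH.

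**Figure D5:**
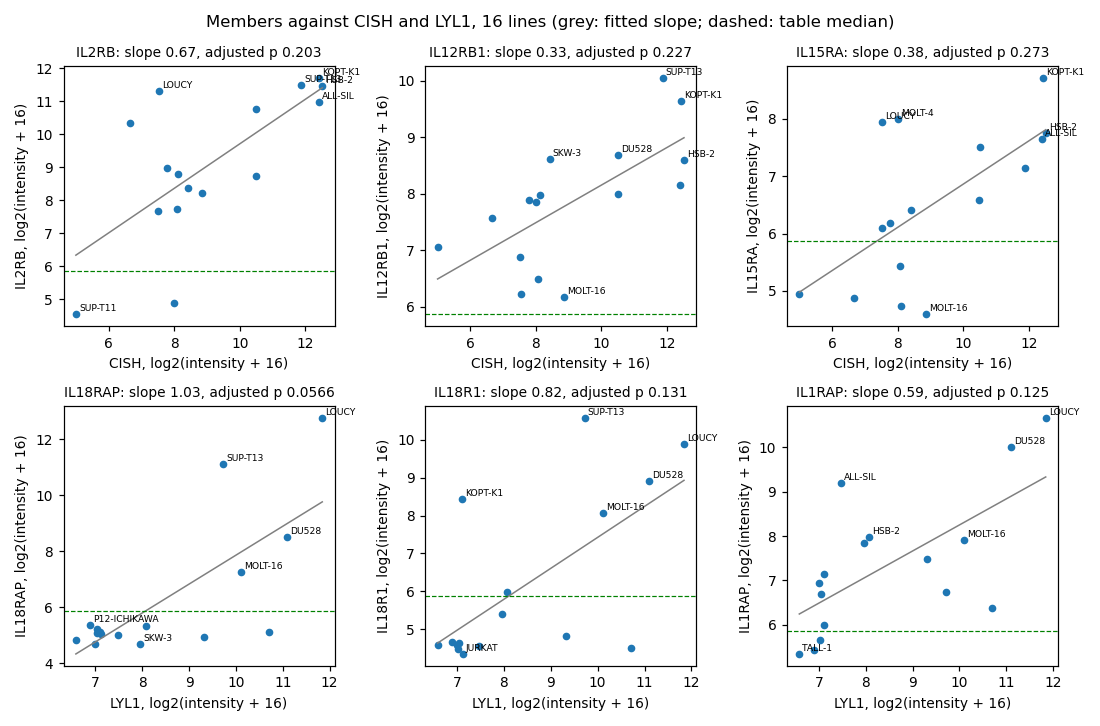
Log2(intensity + 16) of IL2RB, IL12RB1 and IL15RA against CISH (top) and of IL18RAP, IL18R1 and IL1RAP against LYL1 (bottom), 1 point per line (16 lines), with the fitted slope in grey and the table median dashed. The 5 highest lines and the lowest are named; LOUCY is high for IL2RB at low CISH, and the unnamed point low for IL18R1 at high LYL1 is PEER.

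Of 9 measured JAK and STAT genes 5 were clearly present in all lines (JAK1, TYK2, STAT3, STAT5B and STAT6) and 0 in none. STAT5A was 31.6 in SUP-T11 and 5431 in DU528, and STAT4, which acts below the IL-12 receptor, ran from 10.2 in CCRF-CEM to 1795 in SUP-T13. Of 8 feedback and output genes 7 had an SD above 1 and 0 were clearly present in all lines. In a list of 8 partner and related receptor chains, which holds IL2RG and IL7R, 5 were never clearly present (CSF2RA, CRLF2, OSMR, LIFR and CNTFR). EBI3 and IFNG, of 5 measured cytokine genes without an IL symbol, were not clearly present in any line either. LIF, an IL-6 family ligand, was 3031 in DU528, 2865 in HSB-2 and 1473 in SUP-T13, and at most 207 elsewhere.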

How the data were processed

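Labelled RNA of 16 T-ALL lines was measured on 1 array each. The authors deposited probe set intensities on a linear scale, from 0.6 to 24485. The sources used here name no software, background correction or scaling, and no further normalization was applied. Depth does not apply to arrays.

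Values were analysed as log2(intensity + 16), computed from the deposited intensities. Of 54675 probe sets, 62 were controls, 41091 named 1 gene, 1801 several and 11721 none in the platform annotation, and 41037 matched a gene ID of the reference (0 symbols updated). For each of 19735 genes the brightest probe set by mean level was taken, among those naming that gene alone. The 80 members had 147 such probe sets, and 43 members had 1. Left out were 6 noncoding transcripts. A gene is called clearly present above 4 times the table median.

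Fits used limma 3.58.1 in R 4.3.3 (trend and robust, adjusted p below 0.05) on genes above the table median in at least 3 lines, with the level of CISH or LYL1 as slope. In simulated data with independent noise, slopes of 0.5 were recovered for 92% (LYL1) and 97% (CISH) of planted genes. False calls numbered 7 and 16 among 13292 genes. The planted genes had an SD below 1, so recovery was not tested for wider members such as IL18RAP (SD 2.46) and IL2RB (SD 2.23). Neither level split the lines, as the largest gap was 23.7% of the range for LYL1 and 22.0% for CISH. Correlations are Pearson's r over the lines. Levels and figures were computed with pandas 2.3.3, numpy 2.4.6 and matplotlib 3.10.9 in Python 3.11.15. Promoter sequences are RefSeq's, and 65 members matched that table.

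Named members are those above the table median in all lines, with an SD above 1, called in a fit, set apart by 3 log2 units, nearest the table median, or in fixed receptor pairs, besides the widest genes of each fixed list. Others are said to be chosen after their values were seen or given as background or ligand of a named receptor. The members, lists and drivers were chosen with earlier results of these data known. Alternatives were the pseudocount, quantile normalization, centring, the choice of probe set, the level, the filter, the ACTB ratio as a covariate, the fit's options, and leaving out lines.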

Additional observations from a re-analysis of the deposited data

How the results depend on the processing

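The counts of members above the table median in all lines (9) and in none (30) stayed within 1.5 times under each normalization, pseudocount and probe set choice run. At a level of 2 times the table median 3 members were above it in all lines, and at 4 times it 2 in all and 49 in none. Members with an SD above 1 numbered 23, against 12 with a pseudocount of 64, all of them among the 23, and 15 with the mean of all probe sets of a gene, also all among the 23. The share of all genes with such an SD was computed at the main setting only. Whether the members exceed it under these alternatives therefore cannot be told. With quantile normalization or centred arrays the same 23 had an SD above 1. Leaving out 1 line at a time gave 9 to 10 members above the table median in all lines, 30 to 32 in none and 21 to 23 with an SD above 1.

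The fits on CISH called 0 members under every alternative, among them each left-out line. Those on LYL1 called 0 under every alternative apart from leaving out PEER, so that the left-out lines gave 0 to 2. Without DU528 and LOUCY, the lines farthest in LYL1, 1 gene of all tested was called, against 112 with all lines. The slope of IL17RC on LYL1 was -0.11 and turned to 0.13 with the probe set of highest SD and to 0.0258 with the mean of its probe sets. No paired analysis was possible because the lines form 1 group and share no replicate numbers. With 1 array per line and no replicate, neither the error of a level nor the reality of a difference between values near the table median can be judged.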
